A study of Mus musculus with 8 samples.

Results

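The genes described here are the receptor, kinase, transcription factor and feedback inhibitor through which mouse cells answer leukemia inhibitory factor (LIF). They are Lifr, Il6st, Jak1, Stat3 and Socs3, 5 genes picked by name out of 20153 gene identifiers in the expression table, and all 5 were among the 11083 genes that entered the tests. LIF is a secreted cytokine that binds the LIF receptor (Lifr), which then pairs with the shared signalling chain gp130, the product of Il6st. Janus kinases held on the receptor tails, among them Jak1, phosphorylate the tails and then the transcription factor Stat3, which moves to the nucleus, and Socs3 is switched on by Stat3 and shuts the receptor and kinase off again. In mouse embryonic stem cells this route sustains self-renewal, and LIF is one of the factors with which primordial germ cells can be turned into pluripotent embryonic germ cell lines in culture.

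RNA was measured by sequencing in 4 mouse groups with 2 libraries each, described in the labels as 2 biological replicates. Embryonic germ cells (EGCs) were lines 4 and 7, so each EGC library was 1 line. They were derived from primordial germ cells sorted at embryonic day 9.5 from Oct4gfpXCD1 embryos, were at passage 6 and were kept on mouse embryonic fibroblasts in medium with serum and LIF, and 500 cells went into each library. Primordial germ cell-like cells (PGCLCs, 300 to 500 cells) and induced primordial germ cells (iPGCs, 1500 cells) were both made from BVSC embryonic stem cells and are labelled passage 21. The PGCLCs passed through an epiblast-like state and were induced in aggregates and the iPGCs by a hanging drop method, and the BVSC stem cells were maintained with LIF and 2 inhibitors. E9.5 primordial germ cells (PGCs, Oct4gfpXCD1, passage 0, 250 cells) were sorted from embryos. Strain, origin and passage differed between the BVSC-derived groups and the others. Passage, culture and the number of cells per library also differed between EGCs and PGCs. PGCLCs and iPGCs differed in induction method and in the number of cells per library, and both had more cells per library than PGCs. The part of these in any difference cannot be told apart from that of the cell type.

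Values are FPKM, fragments scaled to transcript length and library size, which allow levels of different genes to be set side by side, and all tests used limma on log2(FPKM + 1) with p-values adjusted over all 11083 genes and a threshold of 0.05. Differences given below are on the log2(FPKM + 1) scale, which understates the change of genes with low levels. The table holds no read counts. From the spacing of low FPKM values the depth was approximately 2500000 to 2700000 reads in iPGC library 1, 7700000 to 8400000 in PGCLC library 1, and between 14200000 and 19800000 in the other 6. The median tested gene differed by 0.07 between EGCs and PGCs, by 0.44 between PGCLCs and PGCs, by 0.47 between iPGCs and PGCs, by 0.00 between PGCLCs and iPGCs, by -0.39 between EGCs and PGCLCs and by -0.40 between EGCs and iPGCs, so member differences are also given relative to that median. Of 12 germ cell markers, 8 to 11 reached 1 FPKM in each library: Dppa3 (Stella), for example, had 40.3 and 100.6 FPKM in EGCs, 725.9 and 399.6 FPKM in PGCLCs, 423.4 and 317.1 FPKM in iPGCs and 409.5 and 573.7 FPKM in PGCs. PGC library 1 stood apart in the summed levels of several marker lists of other cell types. The 9 blood markers summed to 143.0 FPKM there, with 6 of the 9 at 1 FPKM or more, against 3.21 to 17.1 FPKM in the other 7 libraries, where 1 of the 9 reached 1 FPKM, and the defining markers Tyrobp and Spi1 were listed at 0 in all 8. The 6 extraembryonic endoderm markers summed to 88.9 FPKM in PGC library 1 and to 0 to 3.26 FPKM in the others. The 5 mesoderm markers summed to 41.7 FPKM against 0.70 to 13.7 FPKM, and the 8 fibroblast markers to 14.6 FPKM against 0.023 to 4.57 FPKM. Most of the endoderm sum was Afp, at 82.6 FPKM, with 3 of the 6 at 1 FPKM or more and Sox17 and Foxa2 at 0. Most of the mesoderm sum was T (brachyury), at 37.9 FPKM, with Mixl1, Mesp1 and Tbx6 at 0. Of the 5 mesoderm markers 2 reached 1 FPKM there, as in both PGCLC libraries, against 3 in iPGC library 1. The 5 endothelial markers instead summed highest in the PGCLC libraries, to 100.7 and 84.2 FPKM against 15.4 to 56.5 FPKM in the other 6, and 2 of the 5 reached 1 FPKM there. These were Pecam1, at 88.4 and 62.7 FPKM in PGCLCs and 15.2 to 55.9 FPKM elsewhere, and Tek. Tek had 11.96 and 21.5 FPKM in PGCLCs and at most 3.84 FPKM elsewhere, while Cdh5, Kdr and Tie1 were at 0 to 0.34 FPKM in PGCLCs.

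Every member was detected in all 4 groups, although Socs3 was listed at 0 in PGC library 2 and was detected in PGCs in library 1 alone. None of the 5 differed between any 2 groups after adjustment. The 2 receptor chains stood highest in PGCLCs and lowest in EGCs by group mean, Jak1 stood highest in EGCs and lowest in PGCs, and Stat3 spanned the widest range of the 5 on the log2 scale, 5.07 to 56.6 FPKM, with both ends of it in the 2 PGC libraries. Across the 6 comparisons there were 30 member differences. No difference passed the adjusted threshold, and 2 of the 30, both of Il6st, had an unadjusted p below 0.05, while 14.2% of the differences of all tested genes over the 6 comparisons did. Among all tested genes, 0.74% passed between EGCs and PGCs, 1.06% between PGCLCs and PGCs, 0.794% between iPGCs and PGCs, 0.018% between PGCLCs and iPGCs, 0.0993% between EGCs and PGCLCs and 0.117% between EGCs and iPGCs. With 2 libraries a group these tests leave wide intervals, and a missed threshold does not show that levels were alike. In these bulk samples fewer cells that use a gene and less RNA per cell cannot be told apart.

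**Figure D1:**
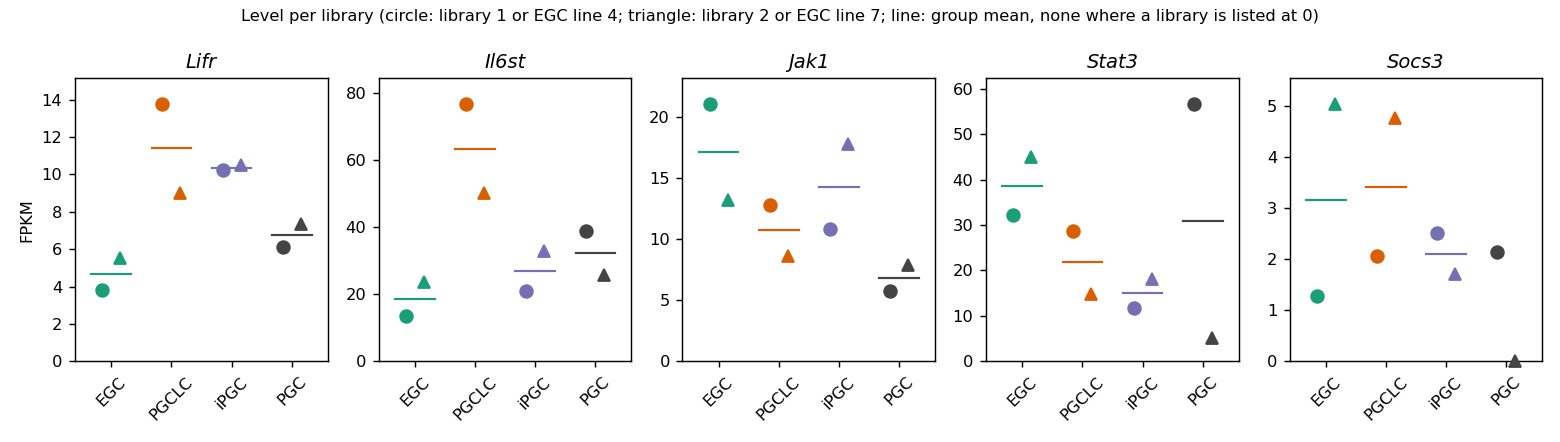
FPKM (vertical axis, linear, a separate scale for each gene) of Lifr, Il6st, Jak1, Stat3 and Socs3 in EGCs, PGCLCs, iPGCs and PGCs (horizontal axis); each point is 1 library, with library 1 or EGC line 4 as a circle and library 2 or EGC line 7 as a triangle, and horizontal lines are group means (none for Socs3 in PGCs, listed at 0 in library 2). Il6st is highest in both PGCLC libraries, at 76.6 and 50.1 FPKM, while Stat3 has its highest and its lowest value, 56.6 and 5.07 FPKM, in the 2 PGC libraries.

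Lifr, the chain that binds LIF itself (ENSMUSG00000054263, GRCm38 chromosome 15, 7090614 to 7197489, plus strand), had 3.82 and 5.53 FPKM in EGCs, 13.8 and 9.02 FPKM in PGCLCs, 10.2 and 10.5 FPKM in iPGCs and 6.12 and 7.36 FPKM in PGCs. Both EGC libraries lay below all 6 others, and both PGC libraries lay between the EGC libraries and those of the BVSC-derived groups. The group means were 4.67 ± 1.21 FPKM in EGCs, 11.4 ± 3.35 FPKM in PGCLCs, 10.3 ± 0.19 FPKM in iPGCs and 6.74 ± 0.87 FPKM in PGCs (SD, n = 2 each). In this order from PGCLCs through iPGCs and PGCs to EGCs, no neighbours passed the test, although the libraries of iPGCs and PGCs, and of EGCs and PGCs, did not overlap. PGCLCs minus iPGCs was 0.10 ± 0.54 (SE; limma, adjusted p = 1.0), iPGCs minus PGCs was 0.56 (adjusted p = 0.603) and EGCs minus PGCs was -0.46 (adjusted p = 0.709). The widest difference was between the ends of the order: EGCs minus PGCLCs was -1.116, with a 95% interval of -2.34 to 0.11 and an adjusted p of 0.403 by limma. Relative to the median gene, that difference was -0.73, and the PGCLC and iPGC differences from PGCs were 0.22 and 0.09.

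Il6st, which encodes gp130, the chain that the receptors of the interleukin 6 family share (ENSMUSG00000021756, chromosome 13, 112464070 to 112510086, plus strand), had 13.6 and 23.6 FPKM in EGCs, 76.6 and 50.1 FPKM in PGCLCs, 20.9 and 32.8 FPKM in iPGCs and 38.8 and 25.8 FPKM in PGCs. Both PGCLC libraries lay above the other 6, both EGC libraries lay below both PGC libraries, and iPGCs overlapped both EGCs and PGCs. The means were 18.6 ± 7.08 FPKM in EGCs, 63.4 ± 18.8 FPKM in PGCLCs, 26.8 ± 8.41 FPKM in iPGCs and 32.3 ± 9.20 FPKM in PGCs (SD, n = 2 each). From high to low the order was PGCLCs, PGCs, iPGCs, EGCs. The neighbouring differences were 0.95 for PGCLCs minus PGCs (adjusted p = 0.352), -0.26 for iPGCs minus PGCs (adjusted p = 0.805) and -0.52 for EGCs minus iPGCs (adjusted p = 0.737), each with an SE of 0.51.

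The 2 member differences with an unadjusted p below 0.05 were both of Il6st and both involved PGCLCs. EGCs minus PGCLCs was -1.74 ± 0.51, with a 95% interval of -2.89 to -0.58 (limma, unadjusted p = 0.00802, adjusted p = 0.219), and -1.35 relative to the median gene. PGCLCs minus iPGCs was 1.21 ± 0.51, with an interval of 0.06 to 2.36 (limma, unadjusted p = 0.0412, adjusted p = 1.0). The mean level in PGCLCs was 2.36 times that in iPGCs, and the mean in EGCs was 0.293 times that in PGCLCs. The endothelial markers Pecam1 and Tek were also highest in the 2 PGCLC libraries, with Cdh5, Kdr and Tie1 at or near 0 there, as given above. Pecam1 was present in all 8 libraries, at 55.9 FPKM in PGC library 2. Any link of these markers with the Il6st level was not tested.

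The 2 chains signal as a pair, and Il6st was the higher in every library. The ratio of Il6st to Lifr FPKM was 3.55 and 4.27 in EGCs, 5.57 and 5.55 in PGCLCs, 2.05 and 3.12 in iPGCs and 6.34 and 3.51 in PGCs. It was higher in both PGCLC libraries than in any EGC or iPGC library, and the PGC libraries spanned from below the PGCLC values to above them. Over the 8 libraries the log2 levels of Lifr and Il6st had a Pearson correlation of 0.723, the closest of the 10 member pairs. This describes 4 groups of 2 libraries and is given without a test.

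Jak1, a tyrosine kinase bound to gp130 (ENSMUSG00000028530, chromosome 4, 101152367 to 101265282, minus strand), had 21.1 and 13.2 FPKM in EGCs, 12.8 and 8.67 FPKM in PGCLCs, 10.8 and 17.8 FPKM in iPGCs and 5.76 and 7.91 FPKM in PGCs. Both PGC libraries lay below the other 6, and the EGC libraries lay above both PGCLC libraries and overlapped the iPGC libraries. The means were 17.1 ± 5.58 FPKM in EGCs, 10.7 ± 2.92 FPKM in PGCLCs, 14.3 ± 4.91 FPKM in iPGCs and 6.83 ± 1.52 FPKM in PGCs (SD, n = 2 each). EGCs minus PGCs was 1.19 ± 0.55, with a 95% interval of -0.05 to 2.43 (limma, adjusted p = 0.313), and 1.125 relative to the median gene. In the order from EGCs through iPGCs and PGCLCs to PGCs, neighbours differed by 0.25 for EGCs minus iPGCs (adjusted p = 0.898), -0.37 for PGCLCs minus iPGCs (adjusted p = 1.0) and 0.57 for PGCLCs minus PGCs (adjusted p = 0.606), and none passed the test, although the libraries of PGCLCs and PGCs did not overlap. Jak1 overlaps Raver2 on the opposite strand by 4 bases.

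**Figure D2:**
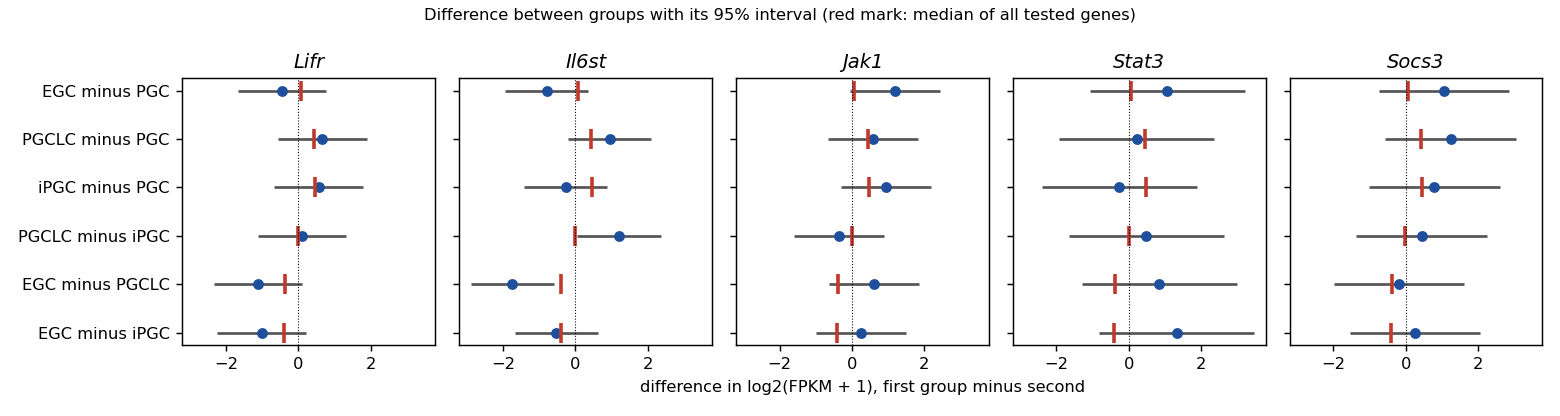
Log2(FPKM + 1) differences of the 5 members (horizontal axis) in the 6 comparisons, each group named first minus the one named second; points are limma estimates, lines their 95% intervals and red marks the median of all tested genes. The intervals of Il6st for EGCs minus PGCLCs (-2.89 to -0.58) and for PGCLCs minus iPGCs (0.06 to 2.36) are the only ones of the 30 that leave out 0, before adjustment over genes.

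Stat3, the transcription factor that carries the signal to the nucleus (ENSMUSG00000004040, chromosome 11, 100885098 to 100939540, minus strand), had 32.3 and 45.03 FPKM in EGCs, 28.8 and 14.9 FPKM in PGCLCs, 11.7 and 18.2 FPKM in iPGCs and 56.6 and 5.07 FPKM in PGCs. Both EGC libraries lay above all 4 PGCLC and iPGC libraries, while PGC library 1 lay above and PGC library 2 below every other library. The means were 38.6 ± 9.03 FPKM in EGCs, 21.8 ± 9.82 FPKM in PGCLCs and 14.9 ± 4.63 FPKM in iPGCs, against 30.8 ± 36.4 FPKM in PGCs (SD, n = 2 each). EGCs minus iPGCs was 1.33 ± 0.94 (95% interval -0.81 to 3.46, limma, adjusted p = 0.648), EGCs minus PGCLCs was 0.85 (adjusted p = 0.723) and PGCLCs minus iPGCs was 0.48 (adjusted p = 1.0). Relative to the median gene, EGCs minus iPGCs was 1.73 and EGCs minus PGCLCs was 1.23.

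The Stat3 comparisons with PGCs changed direction with the PGC library used. The gap between the 2 came to 11.2-fold, and 94.4% of the 4209 genes with a mean of at least 10 FPKM had a smaller gap between the same 2 libraries, where the median gap was 0.84 on the log2 scale. With both libraries, EGCs minus PGCs was 1.07 (adjusted p = 0.609), PGCLCs minus PGCs was 0.22 (adjusted p = 0.925) and iPGCs minus PGCs was -0.26 (adjusted p = 0.908). Without PGC library 1 these differences were 2.69, 1.84 and 1.36 (adjusted p = 0.0855, 0.169 and 0.272), and without PGC library 2 they were -0.56, -1.40 and -1.88 (adjusted p = 0.626, 0.201 and 0.129), with the remaining PGC library taken to vary like the other groups. PGCLCs minus PGCs also turned to -0.18 with quantile normalization and to -0.32 with equal library medians. PGC library 1, which held the high Stat3 value, also held the summed blood, endoderm and mesoderm marker levels given above. Lyz2 had 62.1 FPKM there, Afp 82.6 FPKM, Pf4 27.2 FPKM and T (brachyury) 37.9 FPKM, against 0.71, 0, 0 and 0 FPKM in PGC library 2. Other markers of these lists did not follow. Tbx6 and Sox17 were at 0 in PGC library 1 and at 2.24 and 0.61 FPKM in PGC library 2, and Mixl1, Mesp1, Tyrobp and Spi1 were at 0 in both. The part of such markers' cells in the Stat3 value was not tested. Stat3 and Stat5a overlap by 72 bases at their 3′ ends on opposite strands, and whether reads were counted by strand is not given in the sources used here. Stat5a had 0 and 1.28 FPKM in EGCs, 6.74 and 0.46 FPKM in PGCLCs, 0.20 and 1.48 FPKM in iPGCs and 0 and 0.020 FPKM in PGCs, so it was at or near 0 in both PGC libraries.

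**Figure D3:**
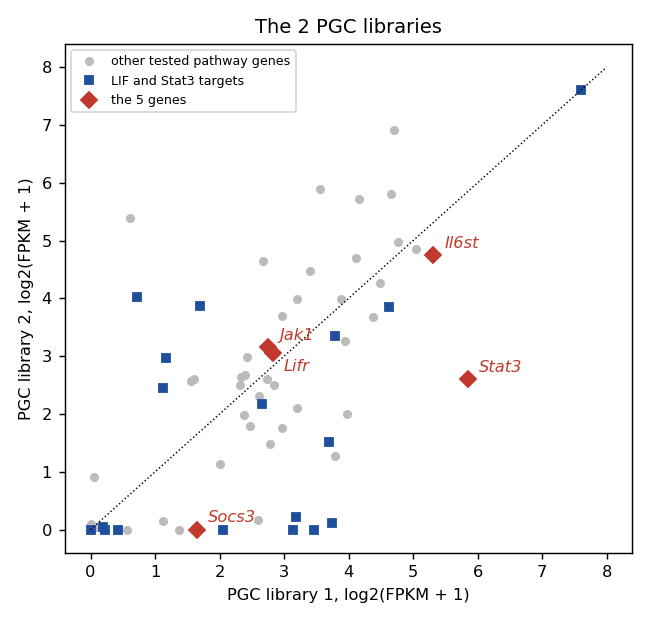
Log2(FPKM + 1) in PGC library 1 (horizontal axis) and PGC library 2 (vertical axis) of the 5 members (diamonds), the LIF and Stat3 targets (squares) and the other tested pathway genes (circles); the dotted line marks equal levels. Stat3 lies far below the line, at 56.6 FPKM in library 1 and 5.07 FPKM in library 2, while Lifr, Il6st and Jak1 lie near it and Socs3 lies at 0 in library 2.

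Socs3, the inhibitor that binds gp130 and Jak kinases and whose gene Stat3 switches on (ENSMUSG00000053113, chromosome 11, 117966079 to 117970047, minus strand), was the lowest of the 5 members. It had 1.27 and 5.04 FPKM in EGCs, 2.06 and 4.76 FPKM in PGCLCs, 2.51 and 1.72 FPKM in iPGCs and 2.15 FPKM in PGC library 1, and it was listed at 0 in PGC library 2. At the estimated depths these values stand for approximately 47 and 206 reads in EGCs, 41 and 173 in PGCLCs, 16 and 74 in iPGCs and 96 in PGC library 1. A listed 0 can also be a failed estimate, so no PGC mean is given. Of 1720 genes at 10 FPKM or more in all the other libraries, 2 were listed at 0 in PGC library 2, as were 2 of 1794 in PGC library 1, while none were in any of the other 6 libraries. All groups overlapped. EGCs minus PGCLCs was -0.18 ± 0.79 (limma, adjusted p = 0.942) and turned to 0.20 with quantile normalization and to 0.26 with equal library medians, and PGCLCs minus iPGCs was 0.44 (adjusted p = 1.0). EGCs minus PGCs was 1.06 (adjusted p = 0.536), PGCLCs minus PGCs was 1.24 (adjusted p = 0.436) and iPGCs minus PGCs was 0.80 (adjusted p = 0.615). Without PGC library 2 these were 0.24, 0.42 and -0.03.

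The promoter sequence of Socs3 is shown because Stat3 binds DNA at sites of the form TTCNNNGAA. The window around the RefSeq start of Socs3 was the only one of the members' windows with that motif. Cish, a relative of Socs3 that also inhibits cytokine receptors, is shown beside it. Both are RefSeq windows of GRCm38.p6, from 250 bases before to 50 after the annotated start, read 5′ to 3′ along the gene, with the motif in capitals. The Socs3 window is chr11:117969317-117969616 on the minus strand and the Cish window chr9:107296409-107296708 on the plus strand. Both lie inside the GENCODE span of their gene, 117966079 to 117970047 for Socs3 and 107296026 to 107302784 for Cish. The 2 Lifr windows also lie inside the Lifr span given above, so the outer GENCODE starts of these genes were not covered.
Socs3: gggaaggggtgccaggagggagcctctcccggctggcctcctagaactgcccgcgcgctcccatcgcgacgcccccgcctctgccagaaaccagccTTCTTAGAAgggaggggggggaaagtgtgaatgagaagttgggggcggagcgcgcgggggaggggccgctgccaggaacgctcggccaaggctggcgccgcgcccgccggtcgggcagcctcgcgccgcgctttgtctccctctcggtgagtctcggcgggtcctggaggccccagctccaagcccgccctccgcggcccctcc
Cish: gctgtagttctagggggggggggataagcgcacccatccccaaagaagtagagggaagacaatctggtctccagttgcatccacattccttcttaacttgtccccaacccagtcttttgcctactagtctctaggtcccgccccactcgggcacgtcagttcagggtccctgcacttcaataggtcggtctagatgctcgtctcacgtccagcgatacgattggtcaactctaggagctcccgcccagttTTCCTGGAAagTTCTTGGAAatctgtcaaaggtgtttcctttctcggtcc
The Socs3 match, TTCTTAGAA, begins at base -154 from the start, and the Cish matches, TTCCTGGAA and TTCTTGGAA, begin at bases 1 and 12. The motif reads the same on both strands, so each match counts once. Of the 32851 RefSeq windows, 8.3% held it, and of the 27025 genes with a window 9.55% had a match. All 5 members had a window, with 2 for Lifr, and 1 of these 5 genes held a match. Among the 51 pathway genes with a window 3 held one (5.88%), Akt2, Gab1 and Cish. Among the 13 targets with a window there were none. Both shares lay below that of all genes, but they rest on few genes, and the 13 targets are part of the 51. The difference from all genes was not tested. A match describes these letters only, and its absence says nothing about binding outside the window. Cish had 0 and 0.44 FPKM in EGCs, 7.00 and 0.24 FPKM in PGCLCs, 1.74 and 3.04 FPKM in iPGCs and 0.056 and 0.027 FPKM in PGCs, and both PGC libraries lay below those of PGCLCs and iPGCs without passing the test (adjusted p = 0.343 and 0.313).

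Member libraries that do not overlap between 2 groups were counted against all tested genes. Between EGCs and PGCs this held for 3 of 5 members, with Jak1 higher and Lifr and Il6st lower, and for 44.1% of all tested genes. Between PGCLCs and PGCs it held for 3 members, Lifr, Il6st and Jak1, all higher, and for 45.2% of genes. Between iPGCs and PGCs it held for 2 members, Lifr and Jak1, both higher, and for 52.5% of genes. The comparison of PGCLCs with iPGCs had 1 such member, Il6st, higher, against 36.8% of genes. EGCs and PGCLCs differed in this way in 4 members, with Jak1 and Stat3 higher and Lifr and Il6st lower, against 46.0% of genes, and EGCs and iPGCs in 2, with Stat3 higher and Lifr lower, against 50.3%. In all, 15 of 30 member comparisons did not overlap, close to these background shares.

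Around the members, 70 further genes of the pathway were followed, of which 61 had enough expression to test. Of these, 1 rose in EGCs against PGCs, where 0.74% of all tested genes passed. Another 1 rose in iPGCs against PGCs, where 0.794% passed. None passed in the other 4 comparisons. In those 4, limma gave an unadjusted p below 0.05 to 15 of the 61 genes for PGCLCs against PGCs and 4 for PGCLCs against iPGCs. For EGCs against PGCLCs there were 11 such genes and for EGCs against iPGCs 8. Over all tested genes the shares at that unadjusted level were 19.5%, 4.7%, 13.9% and 10.3% in the same 4 comparisons. Gab1, the adaptor that links gp130 to the MAP kinase and PI3 kinase routes, had 67.8 and 55.7 FPKM in iPGCs, while the PGC libraries had 8.16 and 3.29 FPKM. It rose by 3.32 ± 0.50 on the log2 scale (limma, adjusted p = 0.0331), or 2.85 relative to the median gene. Gab1 was also higher in both libraries of EGCs (32.1 and 32.1 FPKM) and of PGCLCs (46.4 and 33.7 FPKM) than in PGCs, where the adjusted p was 0.0715 and 0.0517. Pim2, a survival kinase gene that Stat proteins switch on, had 20.98 and 8.12 FPKM in EGCs, against 0.14 and 0.038 FPKM in PGCs, and rose by 3.70 ± 0.64 (limma, adjusted p = 0.0488). Both calls lay close to the threshold. Over the alternative settings the Gab1 call held in 6 of 16, including those without PGC library 1 (adjusted p = 0.0281) and without PGC library 2 (adjusted p = 0.0395), and was lost without any 1 of the other 6 libraries and with equal library medians (adjusted p = 0.0613). The Pim2 call held in 1 of 15 and was lost without any 1 library. Its difference stayed positive in all 15, although the settings that leave the group means unchanged could not alter it.

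The ligand and receptor lists were sparse. Of 8 cytokine genes of the interleukin 6 family, 4 were tested, Il6, Il11 and Clcf1 were listed at 0 in all 8 libraries, and none passed the test. Lif itself had 0.038 and 0.19 FPKM in EGCs, 21.9 and 2.02 FPKM in PGCLCs, 0.54 and 1.24 FPKM in iPGCs and 0.48 and 0 FPKM in PGCs. Both PGCLC libraries lay above the other 6, but 1 of the 2 carried most of the level, and PGCLCs minus PGCs was 2.78 ± 0.89 (limma, adjusted p = 0.143). Of the other receptor chains, Osmr was listed at 0 in 7 of 8 libraries and had 2.53 FPKM in PGCLC library 2, and Il6ra stayed at or below 0.54 FPKM. The 2 that were tested, Cntfr and Il11ra1, the receptor chains for CNTF and interleukin 11, each had their highest level in a PGC library. Cntfr had 0.32 and 1.81 FPKM in EGCs, 0.85 and 0.50 FPKM in PGCLCs, 0 and 2.38 FPKM in iPGCs and 5.87 and 1.78 FPKM in PGCs. Il11ra1 had 0.81 and 0.36 FPKM in EGCs, 2.38 and 1.80 FPKM in PGCLCs, 0 and 2.76 FPKM in iPGCs and 2.05 and 5.08 FPKM in PGCs. Neither passed the test in any comparison. Jak2, at 1.67 to 4.22 FPKM, and Tyk2, at 1.30 to 5.01 FPKM, were lower than Jak1 in every library, as was Jak3 outside PGC library 1, where it had 6.81 FPKM. Among the other Stat genes, none of the 4 tested passed. Stat2 had 4.94 and 4.06 FPKM in EGCs, 5.13 and 5.70 FPKM in PGCLCs and 3.88 and 5.44 FPKM in iPGCs. The PGC libraries had 0.038 and 0.89 FPKM (limma, adjusted p = 0.155, 0.105 and 0.136 for EGCs, PGCLCs and iPGCs minus PGCs). Stat4 ran the other way, with 5.66 and 5.095 FPKM in PGCs and at most 3.07 FPKM elsewhere (limma, adjusted p = 0.421, 0.2595 and 0.174). In each of these comparisons 3 of the 4 were positive and 1 was negative.

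Of 15 negative regulators besides Socs3, 14 were tested and none passed. Socs2, a relative of Socs3, stood well above it, at 14.9 and 12.9 FPKM in EGCs, 18.9 and 44.6 FPKM in PGCLCs, 14.3 and 14.4 FPKM in iPGCs and 26.1 and 30.3 FPKM in PGCs. Socs5 was below the PGC libraries in every other library, with 0.015 and 0.30 FPKM in EGCs, 0 and 1.30 FPKM in PGCLCs and 2.90 and 1.73 FPKM in iPGCs, while the PGC libraries had 4.04 and 5.27 FPKM, and EGCs minus PGCs was -2.29 (adjusted p = 0.12). The median negative regulator differed by -0.06 between EGCs and PGCs, by 0.17 between PGCLCs and PGCs and by 0.34 between iPGCs and PGCs, each below the median of all tested genes in that comparison. The 16 genes of the MAP kinase and PI3 kinase arm, all tested, held the Gab1 call and no other. Akt1, a kinase of the PI3 kinase route, had 1.36 and 4.28 FPKM in EGCs, 6.13 and 5.52 FPKM in PGCLCs and 12.4 and 12.2 FPKM in iPGCs, while the PGC libraries had 21.5 and 18.2 FPKM. Its EGC minus PGC difference was -2.56 ± 0.58 (limma, adjusted p = 0.0856). For EGCs minus PGCLCs, 13 of the 16 genes had a negative difference, with a median of -0.65 against -0.39 for all genes, and for EGCs minus iPGCs 13 of 16 did, with a median of -0.74 against -0.40.

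Of 18 genes known as targets of LIF and Stat3 in mouse pluripotent cells, all were tested and 1, Pim2 in EGCs, passed in any comparison. For EGCs minus PGCs 13 were positive and 4 negative, with a median of 0.93 against 0.07 for all genes, and 10 of 18 did not overlap (44.1% of all genes). For PGCLCs minus PGCs 14 were positive and 4 negative with a median of 1.13 against 0.44, and 11 did not overlap (45.2% of all genes), and for iPGCs minus PGCs 14 were positive and 3 negative with a median of 0.86 against 0.47, and 9 did not overlap (52.5% of all genes). The 3 comparisons share the PGC libraries, and 6 of the 18 targets (Klf4, Myc, Junb, Fos, Bcl3 and Pramel7) were listed at 0 in PGC library 2, against 0 to 2 in each of the other 7 libraries. Pim1, a sister kinase of Pim2, had 9.499 and 16.0 FPKM in EGCs, 19.3 and 19.2 FPKM in PGCLCs and 16.2 and 18.0 FPKM in iPGCs, while the PGC libraries had 1.18 and 4.45 FPKM, so the PGC libraries lay below all others, with adjusted p of 0.159, 0.077 and 0.0968 by limma. Bcl3, a nuclear cofactor of NF-kappaB, had 29.0 and 11.7 FPKM in EGCs, 5.73 and 32.1 FPKM in PGCLCs and 0 and 3.35 FPKM in iPGCs, while the PGC libraries had 0.16 and 0 FPKM. Its adjusted p against PGCs was 0.0932 for EGCs, 0.0937 for PGCLCs and 0.632 for iPGCs, which overlapped PGCs. The pluripotency factor Tfcp2l1 had 19.8 and 19.3 FPKM in EGCs, 11.8 and 19.5 FPKM in PGCLCs and 24.5 and 17.2 FPKM in iPGCs, while the PGC libraries had 2.25 and 13.7 FPKM. Sall4 ran the other way, at 56.7 and 60.3 FPKM in EGCs, 99.5 and 132.8 FPKM in PGCLCs and 107.7 and 93.6 FPKM in iPGCs, while the PGC libraries had 193.2 and 194.0 FPKM, and EGCs minus PGCs was -1.71 ± 0.36 (limma, adjusted p = 0.0715). Ccnd1, the cyclin D1 gene, was highest in EGCs at 89.3 and 59.6 FPKM, against 24.8 and 1.08 FPKM in PGCLCs, 5.33 and 4.91 FPKM in iPGCs and 12.4 and 0.086 FPKM in PGCs.

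**Figure D4:**
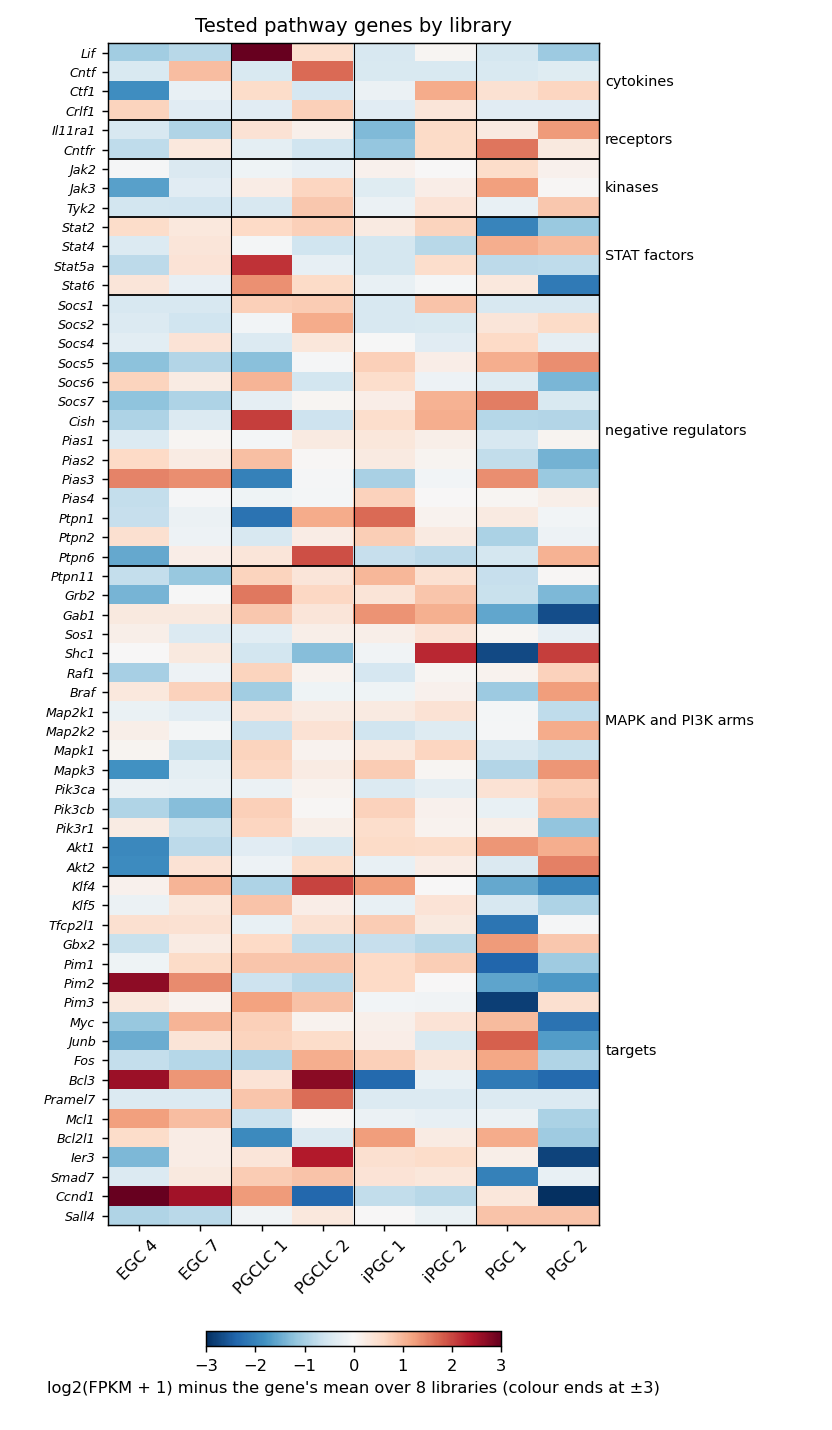
Heat map of the 61 tested pathway genes (rows, grouped by role) in the 8 libraries (columns, from EGCs to PGCs); colour gives each gene's log2(FPKM + 1) minus its mean over the 8 libraries, with the scale ending at 3 either way. Pim1 is low in both PGC libraries (1.18 and 4.45 FPKM) and Sall4 high in them (193.2 and 194.0 FPKM).

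The genes whose levels ran most like each member over the 8 libraries were found by Pearson correlation of log2(FPKM + 1). About 4012 genes with a mean of at least 10 FPKM were compared, after predicted genes, ribosomal protein genes, small RNAs and pseudogenes were left out. For Lifr they were Psmb6, Ddb1 and Cst3 (r = 0.982, 0.978 and 0.974), for Il6st Pak4, Scp2 and Dnajb11 (0.969, 0.966 and 0.963) and for Jak1 Ltbp4, Hscb and Cdc20 (0.933, 0.926 and 0.92). For Stat3 they included Tpm2 and Macf1 (0.89 and 0.876), and for Socs3 they were Decr2, Cnot8 and Gigyf2 (0.939, 0.925 and 0.915). Tpm2 had 36.4 and 20.5 FPKM in EGCs, 12.2 and 3.77 FPKM in PGCLCs, 12.3 and 15.3 FPKM in iPGCs and 52.5 and 0 FPKM in PGCs. Its PGC libraries were also its highest and its lowest, but it was picked for its likeness to Stat3 over these same libraries. The 8 points are 4 groups of 2 libraries, and the values are a description. Stat3 and Socs3 had an r of 0.542, the second closest member pair.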

How the data were processed

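The deposited table holds FPKM values per gene, which the authors made with TopHat2 and Cufflinks on GRCm38 (mm10), per the submitters' processing notes; versions, annotation, filters and strand use were not given in the sources used here. Gene positions are from the GENCODE annotation of GRCm38. RNA was amplified with the Ovation system and sequenced from 8 libraries with spike-in RNA, per the labels' protocols; spike-ins are not analysed here. Of 20171 entries, 18 repeats of a gene identifier were dropped. Genes with at least 1 FPKM in 2 libraries (11083) entered limma 3.58.1 in R 4.3.3, run on log2(FPKM + 1) with a variance trend and robust estimation, in 1 fit of all 8 libraries (4 residual degrees of freedom), with Benjamini-Hochberg adjustment over all genes and a threshold of 0.05; the fit was tested on simulated data. Depth was estimated from the spacing of low FPKM values and is approximate. Alternatives were other pseudocounts, filters, scalings, samples in the fit, a replicate block and leaving out each library. The naming rule was all members, any gene of the pathway lists, and the 3 genes most like each member (1 of them is not reported here); examples from the lists were chosen with their values known. Members and gene lists were chosen with earlier results of these data known.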

Additional observations from a re-analysis of the deposited data

How the results depend on the processing

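None of the 459 member values under 16 alternative settings passed the threshold. Of them, 439 kept their direction and 20 did not. Many could not change direction, so the 439 do not measure stability. Other filters, a fit of only the groups compared and the replicate block leave the difference of group means as it was. So does leaving out a library of a group that is not compared. With quantile normalization, Lifr in PGCLCs minus iPGCs turned to -0.018, Stat3 in PGCLCs minus PGCs to -0.18 and Socs3 in EGCs minus PGCLCs to 0.20; with equal library medians, the Stat3 and Socs3 values were -0.32 and 0.26. Leaving out 1 library in turn gave ranges that crossed 0 for Lifr in PGCLCs minus iPGCs (-0.18 to 0.38), Il6st in iPGCs minus PGCs (-0.58 to 0.049), Jak1 in EGCs minus iPGCs (-0.085 to 0.58), Stat3 in EGCs minus PGCs (-0.56 to 2.69), PGCLCs minus PGCs (-1.40 to 1.84) and iPGCs minus PGCs (-1.88 to 1.36), and Socs3 in iPGCs minus PGCs (-0.028 to 1.63), PGCLCs minus iPGCs (-0.012 to 0.90), EGCs minus PGCLCs (-0.89 to 0.52) and EGCs minus iPGCs (-0.44 to 0.97). The cause was not tested.

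Counts of all genes passing the test moved with the settings; fits of fewer libraries have fewer degrees of freedom. EGCs against PGCs gave 82 genes, and 31 with a pseudocount of 5, 14 with no filter, 0 with only those 2 groups fitted and 7 to 107 leaving out 1 library. PGCLCs against PGCs gave 117, and 183 and 32 with pseudocounts of 0.1 and 5, 0 with no filter, 36 with quantile normalization, 54 with equal medians, 0 with only those groups and 0 to 289 leaving out 1 library. iPGCs against PGCs gave 88, and 166, 34, 18, 45, 46 and 0 under the same settings in that order, and 5 to 222 leaving out 1 library. PGCLCs against iPGCs gave 2, and 1 with a pseudocount of 5, 0 with no filter, 1 with quantile normalization, 4 with only those groups and 0 to 5 leaving out 1 library. EGCs against PGCLCs gave 11 (7 with no filter, 0 to 39 leaving out 1 library) and EGCs against iPGCs 13 (8 with no filter, 5 to 17).

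Same-numbered libraries showed no clear shared deviation. Their deviations correlated at 0.007 between PGCs and iPGCs, -0.029 between PGCs and PGCLCs and 0.058 between iPGCs and PGCLCs. With 2 libraries a group this cannot show that the numbers carry no pairing, and EGCs were not included. A replicate block gave 2 genes for PGCLCs against PGCs, 10 for iPGCs against PGCs and 0 for PGCLCs against iPGCs. Depth is known approximately, and iPGC library 1, the shallowest, limits Socs3 most, at about 16 reads.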
